A study of Mus musculus with 12 samples.

Results

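Solute carriers are membrane proteins that move amino acids, sugars, ions, metals, nucleosides, vitamins and metabolites across the plasma membrane or the membranes of organelles. The 185 genes described here were chosen by symbol from the 13935 genes of the deposited table: Slc, a family number, the letter a and a member number, with any suffix. The rule left out 8 carriers (Slc2a1, Slc2a3, Slc16a1, Slc16a3, Slc7a11, Slc11a1, Slc11a2 and Slc40a1), and a further 18 Slc genes with another family letter did not match it. The members fell into 13 classes by substrate. There were 40 mitochondrial carriers of the Slc25 family, 26 amino acid and peptide carriers and 22 carriers of zinc, magnesium or copper. There were 15 cation exchangers and cation chloride cotransporters, 14 anion carriers, 14 carriers of organic ions and osmolytes and 12 of sugars or sugar phosphates. The remaining classes were 10 carriers of vitamins or heme, 9 of fatty acids, choline or bile acids, 7 of nucleosides or nucleotides, 5 monocarboxylate carriers and 5 nucleotide sugar carriers. A last class of 6 genes matched the rule by name but encodes no carrier.

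The study measured RNA by sequencing in CD11b+ Ly6G+ neutrophils sorted from mouse femoral bone marrow and kept for 8 h in medium with serum, with or without 10 ng/ml of mouse recombinant G-CSF. Both genotypes carried the Socs3fl/fl allele, a Socs3 gene flanked by sites that Cre recombinase can cut. The 4 groups of 3 libraries were Socs3fl/fl untreated, LysMcre Socs3fl/fl untreated, Socs3fl/fl with G-CSF and LysMcre Socs3fl/fl with G-CSF. LysMcre places Cre under the control of the myeloid lysozyme gene Lyz2, and G-CSF is the cytokine that drives the formation of neutrophils. Titles of the LysMcre libraries with G-CSF leave out the floxed allele and carry both the word G-CSF and the word untreated, while their genotype and condition labels and descriptions name the allele and G-CSF, and these were followed. Nothing in the labels ties the 3 libraries of any group to different animals, and the p-values below therefore measure only the spread between libraries, which may be technical.

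G-CSF signals through a receptor that activates JAK kinases and STAT3, and the SOCS3 protein binds that receptor and limits the signal. Among solute carriers, the heavy chain Slc3a2 pairs with light chains of the Slc7 family, and only the pair reaches the cell surface as an exchanger of amino acids. The Slc39 proteins bring zinc and related metals into the cytosol and the Slc30 proteins move zinc out of it. The Slc28 proteins take up nucleosides with sodium, while the Slc29 proteins let nucleosides cross in either direction. The Slc25 proteins sit in the inner mitochondrial membrane and exchange nucleotides, phosphate, iron and carboxylates between the matrix and the cytosol.

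Libraries held 19495754 to 26472118 reads in the listed genes. A depth of 3 reads corresponded to 2.57 to 3.54 normalized counts, the size-factor-scaled read counts used throughout. Socs3 itself was not lower in the libraries labelled LysMcre. Socs3 had 201 to 248 normalized counts in the untreated floxed libraries and 253 to 313 in those labelled LysMcre, and 18533 to 21391 against 35984 to 38354 with G-CSF. Which part of Socs3 the allele removes was not stated in the labels, and the gene count does not check the deletion. Lyz2 was lower in every library labelled LysMcre, at 5646 to 6602 against 219608 to 226031 without G-CSF. The genotype is therefore called LysMcre-labelled below, and each genotype difference is a difference between libraries labelled so. All 13 neutrophil markers were present and took 7.81 to 10.3% of the counts. Sums of the 6 monocyte and macrophage markers present (of 7) were 20158 to 20638 normalized counts in floxed and 19297 to 21315 in LysMcre-labelled cells untreated. With G-CSF these sums were lower, at 14980 to 17904 and 12147 to 14650, and the treated genotypes did not overlap. The single markers did not all fall. Of the 6, 3 rose and 2 fell in floxed cells and 2 rose and 2 fell in LysMcre-labelled cells (limma, adjusted p below 0.05). T and NK cell markers (5 of 7 present) summed to 344 to 374 in floxed and 413 to 442 in LysMcre-labelled cells untreated. With G-CSF they summed to 168 to 201 and 135 to 163, and the genotypes overlapped in neither condition. Only 1 of these 5 markers fell by the same test in each genotype, and none rose. Summed stromal and endothelial markers were 1353 to 1578 in LysMcre-labelled cells with G-CSF and 734 to 940 in the other libraries. Of these 6 markers, 2 rose and 2 fell with G-CSF in floxed cells, and 1 rose and 1 fell in LysMcre-labelled cells. Between the treated genotypes 2 were called higher in LysMcre-labelled cells and none lower, while 3 of the 6 differences were negative. All 6 B cell markers were present, with sums of 8524 to 12180 in floxed and 11646 to 17653 in LysMcre-labelled cells untreated, and 6737 to 10290 and 10018 to 16827 with G-CSF. All 7 progenitor markers were present, with sums of 7696 to 13942 in floxed and 11433 to 11702 in LysMcre-labelled cells untreated. With G-CSF those sums were 13873 to 18369 and 16376 to 18287. Of the 7, 4 rose and 1 fell in floxed cells, and 3 rose and 1 fell in LysMcre-labelled cells. The part of these other cells in the results was not tested. In bulk RNA, fewer cells of a type and less RNA per cell cannot be told apart.

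Carrier genes changed widely with G-CSF, in both directions. In floxed cells 53 members rose and 49 fell out of 185, that is 55.1%, at an adjusted p below 0.05, beside 48.8% of all 13915 genes tested. In LysMcre-labelled cells 62 rose and 66 fell, that is 69.2%, beside 62.6% of all genes. The median log2 difference of the members was 0.05 in floxed and 0.03 in LysMcre-labelled cells, beside 0.00 over all genes in floxed cells. At least 2-fold changes among the called members made up 20.5% of members in floxed cells, beside 14.2% of all genes, and 28.6% in LysMcre-labelled cells, beside 24.7%. Of the members, 46 rose in both genotypes, 42 fell in both and 45 were called in neither. Only Slc28a2 rose in floxed and fell in LysMcre-labelled cells, and only Slc32a1 did the reverse. Joint calls were not counted over all genes, so these counts have no baseline. When libraries were scaled to equal totals, the median of all genes in LysMcre-labelled cells moved to -0.26. The split of member calls became 44 rises and 85 falls, beside 2865 rises and 6327 falls among all 13926 genes tested at that scale. Differences below are those on the deposited scale. Members together took 0.750 to 0.763% of all normalized counts in the untreated floxed libraries and 0.757 to 0.778% in the untreated LysMcre-labelled libraries. That share was 0.782 to 0.803% in floxed and 0.828 to 0.884% in LysMcre-labelled libraries with G-CSF.

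**Figure D1:**
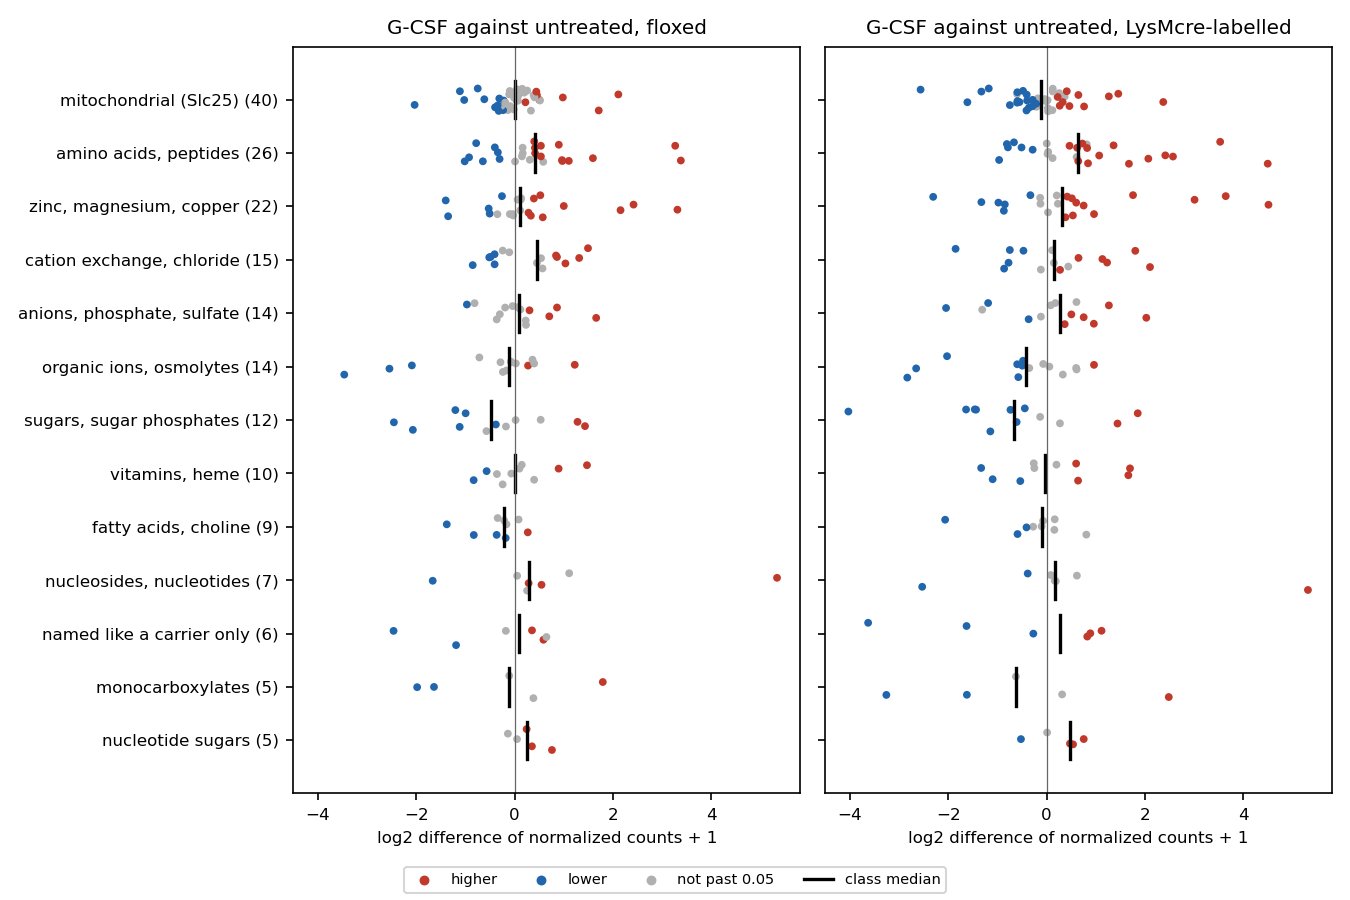
Log2 difference of normalized counts plus 1 between G-CSF and untreated libraries (x axis) for each of the 185 carrier genes, by substrate class (y axis, number of genes in brackets), in floxed (left) and LysMcre-labelled (right) cells. Red points rose and blue points fell at an adjusted p below 0.05, grey points did not pass, and black bars are class medians. The amino acid class has a median of 0.41 in floxed and 0.63 in LysMcre-labelled cells, and the sugar class has medians of -0.48 and -0.67.

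Amino acid carriers rose more often than they fell. Of the 26 members of this class, 12 rose and 7 fell in floxed cells, with a class median log2 difference of 0.41, beside 24.1% of all genes that rose and 24.6% that fell. In LysMcre-labelled cells 14 rose and 6 fell, beside 31.1% and 31.6% of all genes, with a median of 0.63, and rises remained the larger group under equal totals, at 11 against 8. The largest rise in the class was that of Slc7a5, the light chain of the large neutral amino acid exchanger LAT1 (chr8:121881150-121907694, minus strand). Its normalized counts were 441, 474 and 327 in untreated floxed libraries and 595, 459 and 338 in untreated LysMcre-labelled libraries. With G-CSF they were 4757, 4028 and 4037 in floxed and 9582, 10452 and 10653 in LysMcre-labelled libraries. The untreated groups overlapped, every library with G-CSF was above every untreated library, and the treated LysMcre-labelled libraries were the highest. The log2 difference with G-CSF was 3.38 (SE 0.16), a 10.4-fold rise, in floxed cells (adjusted p = 1.8e-10) and 4.50, a 22.6-fold rise, in LysMcre-labelled cells (adjusted p = 2.42e-12).

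Slc3a2, the CD98 heavy chain that carries Slc7a5 and related light chains to the surface (chr19:8706882-8723369, minus strand), moved the same way. It had 1539, 1602 and 1533 normalized counts in untreated floxed libraries and 1858, 1634 and 1562 in untreated LysMcre-labelled libraries. Treated with G-CSF, it had 3451, 3323 and 3260 in floxed and 9667, 9908 and 10369 in LysMcre-labelled libraries. The untreated groups overlapped and the 3 treated LysMcre-labelled libraries stood above all others. The rise was 2.15-fold in floxed and 5.94-fold in LysMcre-labelled cells, and the log2 difference between those responses was 1.47 (SE 0.09, adjusted p = 4.74e-08). Per kilobase of exon, Slc3a2 and Slc7a5 lay at 2828 and 2759 normalized counts in LysMcre-labelled cells with G-CSF, against 477 and 125 in the same cells untreated.

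Other partners of Slc3a2 did not all follow it. Slc7a6, the y+LAT2 light chain for cationic and neutral amino acids, averaged 75.3 ± 15.9 (SD, n = 3) in untreated floxed and 84.7 ± 14.5 in untreated LysMcre-labelled cells. It averaged 141 ± 26.4 in floxed and 270.3 ± 8.19 in LysMcre-labelled cells with G-CSF, a rise in both genotypes. Slc7a7, the y+LAT1 light chain, fell from 338 ± 16.6 to 178 ± 21.9 in floxed and from 368 ± 34 to 189 ± 24.4 in LysMcre-labelled cells. Slc7a8, the LAT2 light chain, passed the test in neither genotype, with log2 differences of 0.31 and 0.61. Slc43a2, a uniporter for large neutral amino acids that works without a heavy chain, fell 2.02-fold in floxed cells, from 2460 ± 127 to 1220 ± 139. In LysMcre-labelled cells it went from 2639 ± 369 to 2159 ± 196, a log2 difference of -0.28 (adjusted p = 0.0241). That call was lost without LysMcre untreated replicate 1 or 2 or LysMcre G-CSF replicate 1, with adjusted p of 0.121, 0.0838 and 0.11.

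Other single carriers of the class are given with their values. Slc38a2, a sodium-coupled carrier of glutamine and alanine, rose from 5595 ± 66.8 to 8104 ± 168 in floxed cells and from 5673 ± 116 to 9412 ± 625 in LysMcre-labelled cells. Its relative and neighbour Slc38a1 rose 1.32-fold in floxed and 1.77-fold in LysMcre-labelled cells. Slc7a1, the main arginine and lysine carrier, rose 1.96-fold from 420.4 ± 48.8 in floxed cells and 2.57-fold from 388 ± 35.8 in LysMcre-labelled cells. Slc1a5, a glutamine exchanger, rose only in LysMcre-labelled cells by the test, by 0.47 on the log2 scale against 0.17 in floxed cells, and the difference between these did not pass (adjusted p = 0.194).

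Slc36a3, of the proton-coupled amino acid carrier family, was low without G-CSF, at 6.39, 7.71 and 3.76 normalized counts in floxed and 9.47, 12 and 7.43 in LysMcre-labelled libraries. With G-CSF it reached 74.7, 54.3 and 64 in floxed and 142, 121 and 99.8 in LysMcre-labelled libraries. Every treated library stood well above every untreated library, and the treated genotypes did not overlap. Its family member Slc36a1, found on lysosomes and a neighbour on chromosome 11, fell 1.72-fold in floxed and 1.75-fold in LysMcre-labelled cells. An antisense gene, Slc36a3os, lies within the span of Slc36a3 without sharing exon sequence with it.

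Slc15a3, a lysosomal carrier of histidine and peptides, rose from 4103 ± 90.7 to 5461 ± 223 in floxed cells and from 3938 ± 407 to 8326 ± 1451 in LysMcre-labelled cells. Its exons overlap those of Tmem132a on the opposite strand over 28.1% of their length. Slc15a2, a cell surface peptide carrier, spread far more between libraries, at 346, 983 and 194 in untreated floxed and 319.7, 405 and 163 in untreated LysMcre-labelled libraries. After G-CSF it had 724, 1684 and 1492 in floxed and 713, 2151 and 1026 in LysMcre-labelled libraries, and the floxed groups overlapped. Slc38a10, a relative of Slc38a2, passed in no comparison and lay between 2955 and 3339 in all 12 libraries.

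**Figure D2:**
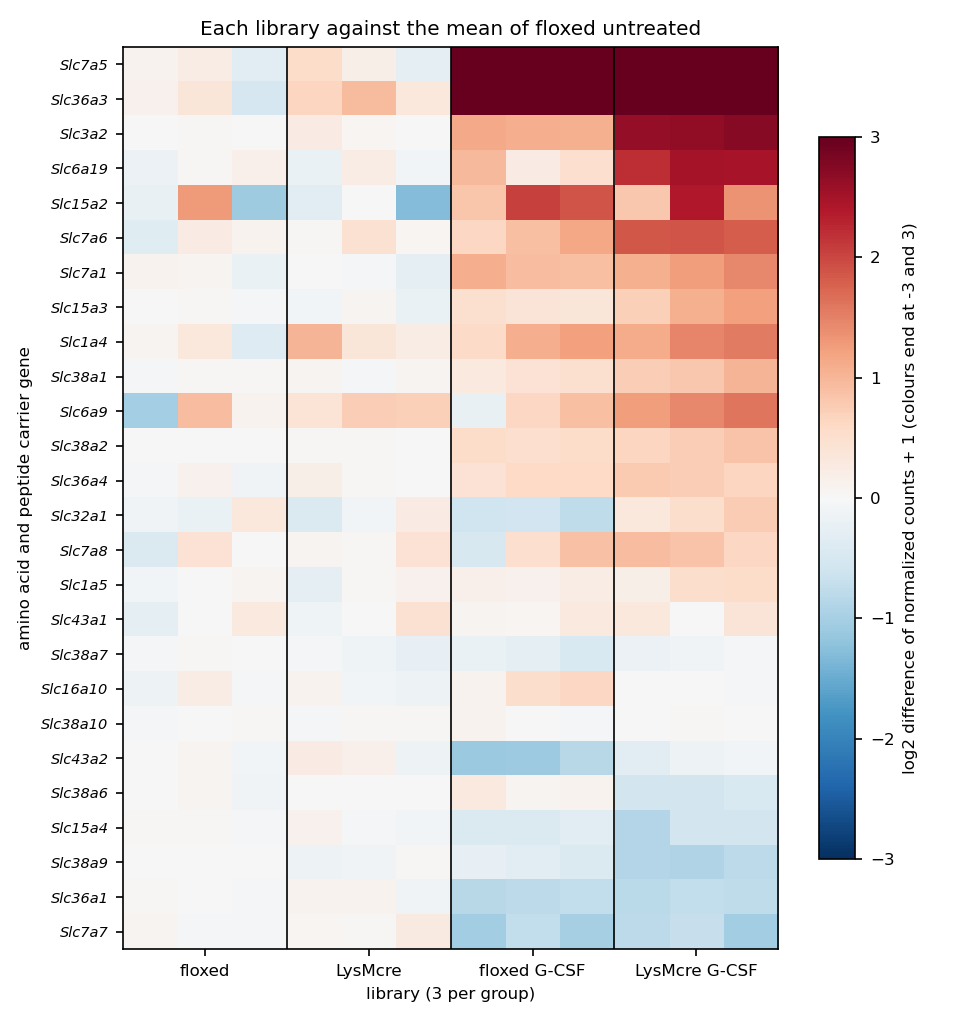
Log2 difference of each library (columns, 3 per group) from the mean of the untreated floxed libraries for the 26 amino acid and peptide carrier genes (rows, ordered by the G-CSF difference in LysMcre-labelled cells). Colours end at -3 and 3. Slc7a5 and Slc36a3 are dark red in all 6 libraries with G-CSF, Slc3a2 is darkest in the treated LysMcre-labelled libraries, and Slc7a7 and Slc36a1 are blue in all 6.

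Nucleoside carriers held both the largest fitted rise among all members and a gene whose response turned with genotype. Of 7 members, 3 rose and 1 fell in floxed cells, and 1 rose and 2 fell in LysMcre-labelled cells. That is 57.1% and 42.9% of the class, beside 48.8% and 62.6% of all genes. Slc28a3, a sodium-coupled carrier of purine and pyrimidine nucleosides, had 1.07, 3.43 and 3.76 normalized counts in untreated floxed libraries and 2.1, 6.02 and 1.86 in untreated LysMcre-labelled libraries, near the level of 3 reads. In the presence of G-CSF it had 178, 114 and 138 in floxed and 166, 129 and 179 in LysMcre-labelled libraries. Treated and untreated libraries lay far apart, and the treated genotypes overlapped (adjusted p of the G-CSF difference 1.25e-08 in floxed and 6.2e-09 in LysMcre-labelled cells). No fold change is given for it because its untreated levels are near the limit of detection.

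Slc28a2, a carrier that prefers purine nucleosides (chr2:122426477-122461137, plus strand), was abundant in all groups. It had 2052, 1981 and 2219 normalized counts in untreated floxed and 1812, 1886 and 2160 in untreated LysMcre-labelled libraries. With G-CSF it had 3109, 3111 and 2907 in floxed cells and 1467, 1486 and 1523 in LysMcre-labelled cells. The untreated genotypes overlapped, the floxed libraries with G-CSF were the highest and the treated LysMcre-labelled libraries were the lowest. The log2 difference with G-CSF was 0.55 (SE 0.07, adjusted p = 5.43e-06) in floxed and -0.38 (SE 0.07, adjusted p = 0.000118) in LysMcre-labelled cells. The difference between the responses was -0.93 (SE 0.09, adjusted p = 5.19e-06).

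The start regions of these carriers are shown because STAT factors act downstream of the G-CSF receptor and because these genes responded so unlike each other. The regions are RefSeq windows on GRCm38.p6, 250 bases before to 50 bases after the annotated start, 5′ to 3′ on the gene's strand. Capitals mark each match to TTCNNNGAA, a palindromic form of the STAT site that reads the same on both strands. The windows are Slc28a2 (chr2:122426185-122426484, plus), Slc28a3 (chr13:58610828-58611127, minus), Slc3a2 (chr19:8713848-8714147, minus) and Slc7a1 (chr5:148392766-148393065, minus).
Slc28a2: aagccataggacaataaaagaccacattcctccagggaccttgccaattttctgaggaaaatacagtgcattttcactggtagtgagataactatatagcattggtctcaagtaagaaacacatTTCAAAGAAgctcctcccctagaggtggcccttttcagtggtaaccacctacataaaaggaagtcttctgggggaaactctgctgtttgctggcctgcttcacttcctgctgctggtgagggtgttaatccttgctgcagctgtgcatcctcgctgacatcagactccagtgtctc
Slc28a3: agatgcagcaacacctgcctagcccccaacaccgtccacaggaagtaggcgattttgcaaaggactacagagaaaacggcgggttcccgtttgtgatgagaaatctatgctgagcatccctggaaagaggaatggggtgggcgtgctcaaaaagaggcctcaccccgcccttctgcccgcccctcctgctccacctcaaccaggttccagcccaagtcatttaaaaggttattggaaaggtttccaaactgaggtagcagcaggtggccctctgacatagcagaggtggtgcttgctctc
Slc3a2: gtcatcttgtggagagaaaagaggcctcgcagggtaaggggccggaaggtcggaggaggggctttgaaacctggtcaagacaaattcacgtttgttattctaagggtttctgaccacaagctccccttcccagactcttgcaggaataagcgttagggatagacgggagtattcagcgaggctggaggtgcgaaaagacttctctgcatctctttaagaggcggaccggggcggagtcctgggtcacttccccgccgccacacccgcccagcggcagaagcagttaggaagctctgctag
Slc7a1: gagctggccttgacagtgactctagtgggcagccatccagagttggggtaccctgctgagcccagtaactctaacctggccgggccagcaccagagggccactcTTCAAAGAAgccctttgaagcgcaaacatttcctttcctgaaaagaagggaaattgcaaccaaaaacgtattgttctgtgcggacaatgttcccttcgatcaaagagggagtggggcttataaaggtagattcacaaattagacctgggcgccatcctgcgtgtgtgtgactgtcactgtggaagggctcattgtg

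The Slc28a2 window held 1 match, TTCAAAGAA, at positions -126 to -118 from the start. The Slc7a1 window held the same letters at -146 to -138, while a second RefSeq start of Slc7a1 had no match. The Slc28a3 and Slc3a2 windows had none. Windows were found for 143 of the 185 members, and 7 of these genes (4.90%) held a match. Among members that rose in both genotypes 1 of 34 (2.94%) did, and among those that fell in both 2 of 32 (6.25%) did. Of the 9552 genes in the deposited table with a window 8.38% held a match, and of all 27025 genes with a window 9.55% did. The second motif searched on both strands was TGATGNAA, a form bound by C/EBP and ATF4 pairs at amino acid response genes. It was found in 6 of the 143 members (4.20%), beside 2.85% of the 9552 genes in the deposited table and 4.51% of all genes with a window. A match is a run of letters, not a measured binding site, and its absence in 300 bases says nothing of sites elsewhere.

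Slc43a3, a purine base carrier, averaged 264 ± 14.3 and 321 ± 14.6 in floxed cells without and with G-CSF, a rise (adjusted p = 0.0388). It averaged 263 ± 28.9 and 301 ± 38.8 in LysMcre-labelled cells and did not pass there, and equal totals gave 2 rises in floxed cells for the class. Slc29a1 and Slc29a3, carriers that equilibrate nucleosides across the plasma and lysosomal membranes, passed in neither genotype, with averages of 132 to 158 and 698 to 743 over the 4 groups. Slc17a9, the vesicular nucleotide carrier that loads ATP into secretory vesicles, fell. It had 1280, 1186 and 1225 normalized counts in untreated floxed and 439, 379 and 348 in floxed libraries with G-CSF. In LysMcre-labelled libraries it had 1100, 1190 and 1460 untreated and 214, 224 and 205 with G-CSF. No treated library reached an untreated one, and the treated LysMcre-labelled libraries were the lowest. The falls were 3.17-fold and 5.77-fold.

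**Figure D3:**
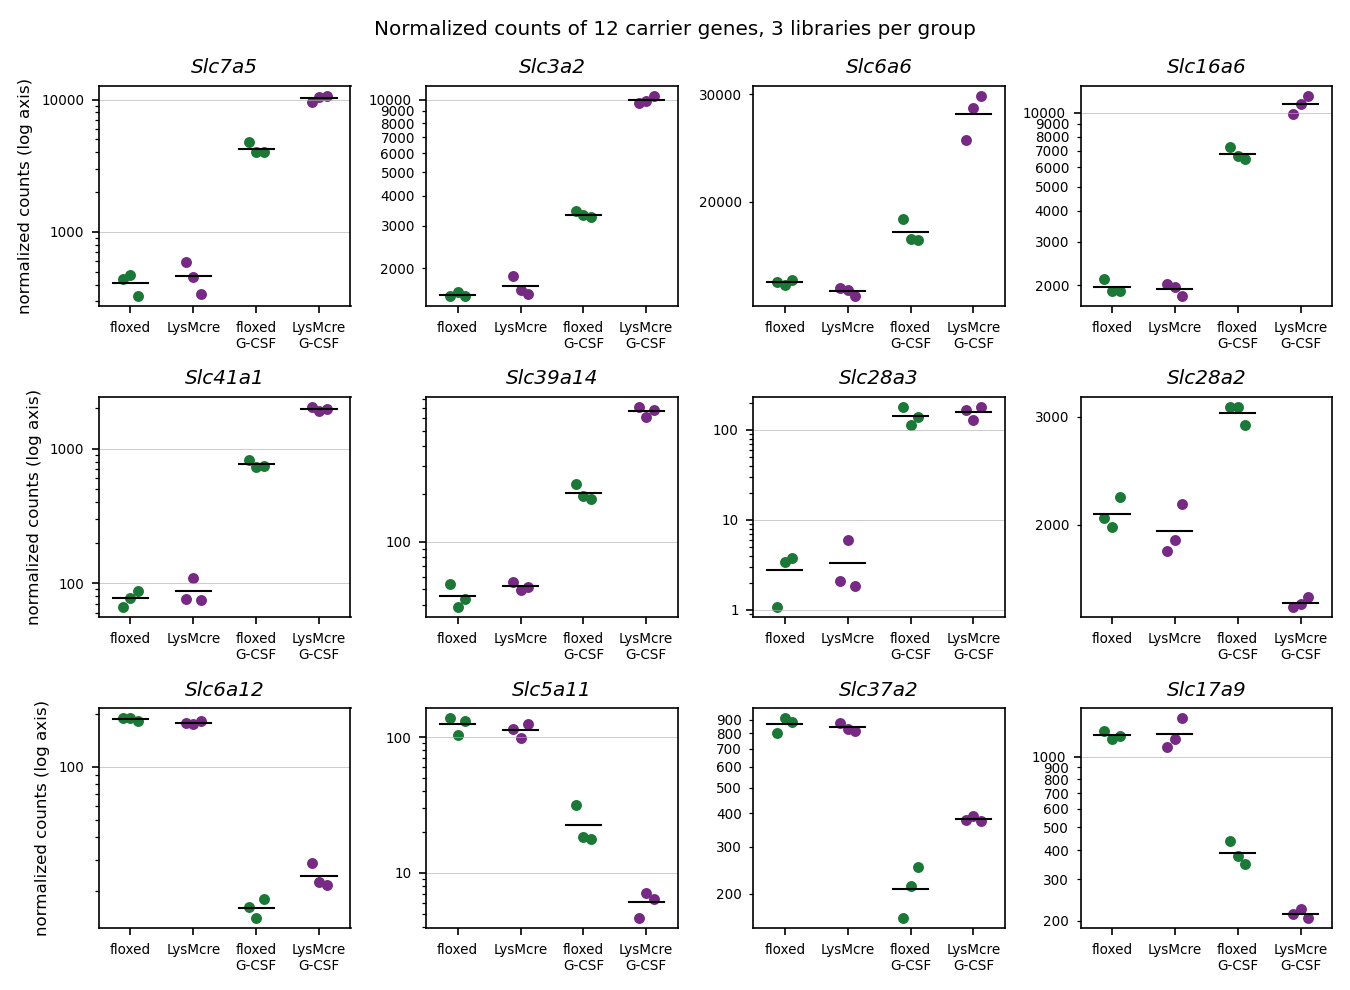
Normalized counts of 12 carrier genes on log axes (y), each point 1 library (3 per group, floxed in green and LysMcre-labelled in purple) and each bar a group mean. The untreated genotypes lie close together, while with G-CSF the LysMcre-labelled libraries lie above the floxed ones for Slc7a5, Slc3a2, Slc6a6, Slc16a6, Slc41a1, Slc39a14, Slc6a12 and Slc37a2 and below them for Slc28a2, Slc5a11 and Slc17a9.

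Metal carriers contributed several of the largest rises. Of 22 members, 9 rose and 5 fell in floxed cells and 11 rose and 6 fell in LysMcre-labelled cells, while equal totals gave 7 rises and 9 falls in the latter. The class was called at 63.6% and 77.3%, beside 48.8% and 62.6% of all genes. Slc41a1, a carrier of magnesium (chr1:131827493-131848865, plus strand), had 66.1, 77.1 and 87.5 normalized counts in untreated floxed and 75.7, 110.0 and 75.2 in untreated LysMcre-labelled libraries. Treated with G-CSF, it had 823, 731 and 748 in floxed and 2035, 1913 and 1973 in LysMcre-labelled libraries. All 6 treated libraries were above all untreated ones and the treated genotypes did not overlap. The rises were 9.91-fold (log2 difference 3.31, SE 0.13) and 22.8-fold (4.51, SE 0.13). Its relative Slc41a3, placed at mitochondria, fell 2.55-fold in floxed and 2.51-fold in LysMcre-labelled cells.

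Zinc importers of the Slc39 family moved in both directions. Slc39a14 (ZIP14), which also carries iron and manganese, had 54.4, 38.5 and 43.3 normalized counts in untreated floxed and 55.7, 49.9 and 52 in untreated LysMcre-labelled libraries. After G-CSF it had 232, 194 and 186 in floxed and 707, 616 and 679.6 in LysMcre-labelled libraries, so the genotypes overlapped without G-CSF and stood apart with it. The rises were 4.45-fold and 12.5-fold, and the difference between the responses was 1.49 on the log2 scale (SE 0.19, adjusted p = 4.96e-05). Slc39a8 (ZIP8) rose from 9.27 ± 3.13 to 52.1 ± 1.28 in floxed and from 8.8 ± 6.4 to 63.7 ± 6.63 in LysMcre-labelled cells. Slc39a1 (ZIP1), a plasma membrane importer, rose 2-fold in floxed and 3.38-fold in LysMcre-labelled cells, from 564 ± 34.3 and 552 ± 8.66. Slc39a11 (ZIP11), placed in the Golgi and nucleus, fell 2.64-fold from 1121 ± 130.2 in floxed and 4.94-fold from 994 ± 34.6 in LysMcre-labelled cells.

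Zinc export and copper carriers include the following. Slc30a1 (ZnT1), the zinc exporter of the plasma membrane, fell 1.42-fold in floxed and 1.83-fold in LysMcre-labelled cells. Slc31a1 (CTR1), the copper importer, rose 1.44-fold and 1.69-fold, and its neighbour Slc31a2 (CTR2) on chromosome 4 fell 1.44-fold and 1.8-fold. Slc31a2 was the most abundant metal carrier per kilobase of exon, at 1661 in untreated floxed and 849 in LysMcre-labelled cells with G-CSF.

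Sugar and sugar phosphate carriers fell more often than they rose. Of 12 members, 2 rose and 6 fell in floxed cells (median -0.48), and 2 rose and 8 fell in LysMcre-labelled cells (median -0.67). Of all genes 24.1% rose and 24.6% fell in floxed cells, and 31.1% rose and 31.6% fell in LysMcre-labelled cells. Equal totals gave 2 rises and 8 falls, and 2 rises and 9 falls. Slc5a11, a sodium-coupled carrier of myo-inositol, had 139, 105 and 132 normalized counts in untreated floxed and 116, 98.9 and 125 in untreated LysMcre-labelled libraries. In the presence of G-CSF it had 31.4, 18.4 and 17.9 in floxed and 4.62, 7.08 and 6.44 in LysMcre-labelled libraries. The 4 groups fell into 3 levels, with the untreated genotypes overlapping at the top. The falls were 5.48-fold and 16.3-fold.

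Slc37a2, a sugar phosphate exchanger of the endoplasmic reticulum, fell less in LysMcre-labelled cells. It went from 801, 914 and 884 to 161, 213 and 252 in floxed cells and from 877, 831 and 818 to 377, 390.4 and 375 in LysMcre-labelled libraries. The treated genotypes did not overlap, and the difference between the responses was 0.93 (SE 0.17, adjusted p = 0.000895). Slc2a9, the urate and hexose carrier GLUT9, fell 2.17-fold in floxed and 3.11-fold in LysMcre-labelled cells. Slc37a1, Slc37a4 and Slc45a4 also fell in both genotypes. Both that rose were Slc2a6, the lysosomal hexose carrier GLUT6, and Slc37a3, a lysosomal phosphate family member. Slc2a6 rose from 4041 ± 193 to 9808 ± 502 in floxed and from 3905 ± 352 to 10605 ± 900.4 in LysMcre-labelled cells. Per kilobase it was the most abundant member of all in LysMcre-labelled cells with G-CSF, at 3303 normalized counts per kilobase. Slc37a3 rose 2.7-fold and 3.61-fold.

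The 5 monocarboxylate carriers were split. Slc16a6 (MCT7) rose from 1966 ± 129 to 6810 ± 409 in floxed and from 1928 ± 112 to 10802 ± 886 in LysMcre-labelled cells, a log2 difference of 1.79 and 2.48 (SE 0.07 each). Its exons overlap Amz2 on the opposite strand over 21.5% of their length. Slc16a14, a member of the family with no settled substrate, fell 3.95-fold in floxed and 9.56-fold in LysMcre-labelled cells. Slc16a7 (MCT2), a high-affinity carrier of lactate and pyruvate, fell 3.12-fold and 3.07-fold, from 89 ± 1.16 and 63.6 ± 5.02.

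Organic ion and osmolyte carriers held the deepest falls in floxed cells. Of 14 members, 2 rose and 3 fell in floxed cells and 1 rose and 7 fell in LysMcre-labelled cells. These calls were 35.7% and 57.1% of the class, below the 48.8% and 62.6% of all genes. Slc6a12, the betaine and GABA carrier BGT1, had 189, 188 and 182 normalized counts in untreated floxed and 177, 174 and 181 in untreated LysMcre-labelled libraries. With G-CSF it had 16.2, 14 and 17.9 in floxed and 28.9, 22.4 and 21.5 in LysMcre-labelled libraries. No treated library came near an untreated one, and the falls were 11-fold and 7.12-fold. Slc6a13, a GABA and taurine carrier whose gene lies 5343 bases from Slc6a12 on chromosome 6, fell 5.83-fold and 6.28-fold. Slc22a4 (OCTN1), the carrier of ergothioneine, fell 4.26-fold from 402 ± 41.7 in floxed and 4.07-fold from 386 ± 35.1 in LysMcre-labelled cells.

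Slc6a6, the taurine carrier, had the highest mean normalized counts of all members. It had 14758, 14580 and 14872 in untreated floxed and 14409, 14334 and 13984 in untreated LysMcre-labelled libraries. Treated with G-CSF, it had 18721, 17392 and 17323 in floxed and 25257, 28460 and 29828 in LysMcre-labelled libraries. All treated libraries were above all untreated ones, and the treated LysMcre-labelled libraries were the highest. The log2 difference was 0.27 (SE 0.06) in floxed cells, which was 0.06 (adjusted p = 0.285) under quantile normalization, and 0.96 (SE 0.06) in LysMcre-labelled cells.

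Cation and anion carriers moved in both directions. Of 15 cation members, 5 rose and 5 fell in floxed cells and 6 rose and 5 fell in LysMcre-labelled cells, where equal totals gave 4 rises and 5 falls. Called shares were 66.7% and 73.3%, beside 48.8% and 62.6% of all genes. Slc12a7 (KCC4), a potassium chloride cotransporter, had 51.2, 76.2 and 111 normalized counts in untreated floxed and 70.5, 61 and 91.9 in untreated LysMcre-labelled libraries. After G-CSF it had 160.3, 156 and 152 in floxed and 336, 330.2 and 291 in LysMcre-labelled libraries, so each treated group stood above all untreated libraries. Slc9a9, an endosomal sodium proton exchanger, fell 1.81-fold in floxed and 3.6-fold in LysMcre-labelled cells. Slc12a9 rose 2.48-fold in floxed and 2.2-fold in LysMcre-labelled cells.

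Of 14 anion members, 4 rose and 1 fell in floxed cells, and 6 rose and 3 fell in LysMcre-labelled cells, where equal totals gave 4 rises and 5 falls. Calls made up 35.7% and 64.3% of these members, beside 48.8% and 62.6% of all genes. Slc20a1 (PiT1), a sodium phosphate cotransporter that also serves as a retrovirus receptor, rose from 965 ± 143 to 1565 ± 125 in floxed and from 1061 ± 184 to 1772 ± 45.1 in LysMcre-labelled cells. Slc26a8, an anion carrier known from sperm, fell from 63.6 ± 18 to 32.9 ± 13.8 in floxed and from 52.2 ± 3.08 to 12.1 ± 2.49 in LysMcre-labelled cells. Without floxed untreated replicate 1 the floxed call was lost (adjusted p = 0.0554). Slc4a2, the chloride bicarbonate exchanger AE2 and the most abundant of the class per kilobase, passed in neither genotype.

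Slc4a1, the band 3 anion exchanger of red cells, ranged from 1.16 to 171 normalized counts over the 12 libraries and passed in no comparison. Its highest values, 134 and 171, were in floxed untreated replicate 3 and LysMcre untreated replicate 3. Of 9 erythroid markers 6 were in the table, and their summed level ranged from 268.1 to 945.8 in untreated floxed and from 184.0 to 1490 in untreated LysMcre-labelled libraries. It ranged from 205.7 to 318.2 and from 175.7 to 213.5 in the treated groups. Hbb-bs was highest in the same 2 libraries, at 344 and 575.

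Of 40 mitochondrial carriers of the Slc25 family, 7 rose and 11 fell in floxed cells and 10 rose and 17 fell in LysMcre-labelled cells, with medians of 0.01 and -0.11. These were 45% and 67.5% of the class, near the 48.8% and 62.6% called over all genes. Equal totals gave 5 rises and 14 falls, and 6 rises and 21 falls. Slc25a30, a little-studied inner membrane carrier, rose 4.31-fold in floxed and 5.18-fold in LysMcre-labelled cells, from 185 ± 21.9 and 183 ± 9.43. Slc25a38, which brings glycine into mitochondria for heme synthesis, rose from 964 ± 55.8 to 3158 ± 256 in floxed and from 978 ± 55.2 to 2692 ± 233 in LysMcre-labelled cells. Slc25a24, a calcium-dependent ATP and phosphate exchanger, rose 1.97-fold and 2.4-fold. The steepest fall was in Slc25a35, an orphan carrier, from 61 ± 20.6 to 13.8 ± 2.96 in floxed and from 59.3 ± 4.04 to 9.39 ± 2.44 in LysMcre-labelled cells. Exons of Slc25a35 overlap Rangrf on the opposite strand over 31.3% of their length.

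The mitochondrial iron importers differed. Slc25a37 (mitoferrin 1) fell from 6586 ± 186 to 5187 ± 317 in floxed and from 6617 ± 319 to 3974 ± 636 in LysMcre-labelled cells. Slc25a28 (mitoferrin 2) did not pass in floxed cells (log2 difference 0.05) and rose from 1257 ± 20.5 to 1675 ± 136 in LysMcre-labelled cells. Slc25a5, an ADP and ATP exchanger, fell 1.18-fold and 1.28-fold. Slc25a11, the oxoglutarate carrier, fell 1.17-fold and 1.33-fold. Slc25a3, the phosphate carrier, did not pass in floxed cells and rose 1.17-fold in LysMcre-labelled cells.

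Slc25a27 (UCP4), an uncoupling protein relative, responded in LysMcre-labelled cells by the test. It had 108, 117 and 101 normalized counts untreated and 109, 116 and 95.1 with G-CSF in floxed libraries. In LysMcre-labelled libraries it had 113, 134 and 117 untreated and 47.4, 42.5 and 53.7 with G-CSF. The treated LysMcre-labelled libraries lay below all others, which overlapped. The difference between the responses was -1.31 (SE 0.20, adjusted p = 0.000191).

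Lipid carriers mostly fell or did not pass, with 1 rise and 4 falls of 9 in floxed cells and 3 falls in LysMcre-labelled cells, and 6 falls in each under equal totals. On the deposited scale 55.6% and 33.3% were called, beside 48.8% and 62.6% of all genes. Slc27a4 (FATP4), a fatty acid carrier and acyl-CoA synthetase, was the most abundant of the class and fell from 12103 ± 545 to 6829 ± 753 in floxed and from 11461 ± 1026 to 7694 ± 1541 in LysMcre-labelled cells. Its relative Slc27a3 fell 2.6-fold and 4.18-fold. Slc44a2, a choline carrier that also bears a human neutrophil antigen, changed by -0.18 in floxed and -0.10 in LysMcre-labelled cells on the log2 scale. Only the floxed value passed (adjusted p = 0.0207), and the call was lost without floxed untreated replicate 1 or 3 or floxed G-CSF replicate 2 or 3.

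Vitamin and heme carriers were mixed, at 2 rises and 2 falls of 10 in floxed and 4 rises and 3 falls in LysMcre-labelled cells, where equal totals gave 2 rises and 4 falls. Before that rescaling 40% and 70% of the class were called, beside 48.8% and 62.6% of all genes. Slc48a1 (HRG1), which moves heme out of the phagolysosome, fell from 1624 ± 193 to 1090 ± 62 in floxed and from 1678 ± 169 to 784 ± 71.6 in LysMcre-labelled cells. Slc19a1, the reduced folate carrier, rose 2.77-fold and 3.24-fold from 24.5 ± 2.57 and 31.8 ± 2.6. Slc23a2, a vitamin C carrier, fell 1.78-fold in floxed cells and did not pass in LysMcre-labelled cells (log2 difference -0.25, adjusted p = 0.119). Among the 5 nucleotide sugar carriers of the Golgi, 3 rose and none fell in floxed cells (24.1% of all genes rose and 24.6% fell). In LysMcre-labelled cells 3 rose and 1 fell (31.1% of all genes rose and 31.6% fell). Slc35a5 rose 1.69-fold in each genotype, from 2815 ± 57.9 and 2682 ± 70.6. Slc35a2, the UDP-galactose carrier, rose 1.28-fold and 1.45-fold.

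The 6 genes that share only the name moved as widely. Slc9a3r2, a scaffold protein that binds ion exchangers, had 152, 151 and 120.5 normalized counts in untreated floxed and 148, 156 and 153 in untreated LysMcre-labelled libraries. In the presence of G-CSF it had 30.3, 21 and 23.5 in floxed and 10.4, 9.44 and 15 in LysMcre-labelled libraries. The treated groups did not overlap each other or the untreated libraries. The related scaffold Slc9a3r1 was the most abundant member per kilobase in untreated floxed cells, at 3363, and did not pass in floxed cells (log2 difference -0.18) while it fell 1.21-fold in LysMcre-labelled cells. Slc7a6os, beside Slc7a6 on chromosome 8, rose 1.28-fold and 2.17-fold. Slc4a1ap rose 1.5-fold and 1.85-fold, the pseudogene Slc2a4rg-ps fell 2.28-fold and 3.09-fold, and Slc36a3os had log2 differences of 0.65, which did not pass, and 0.83, which did (adjusted p = 0.0213). That call was lost with DESeq2 (adjusted p = 0.0702), under equal totals (0.087) and without LysMcre untreated replicate 1 (0.0726) or LysMcre G-CSF replicate 1 (0.119). Without these 6 genes 51 members rose and 47 fell in floxed cells, and 59 rose and 63 fell in LysMcre-labelled cells.

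Without G-CSF no member passed the test between genotypes. The test with limma called 0 of 185, beside 0.115% of all genes (0.0647% higher, 0.0503% lower and 0.0647% called with at least a 2-fold difference). Its unadjusted p was below 0.05 for 7 members, beside 465 of all 13915 genes. On the recovered reads, edgeR and DESeq2 also called 0 members. Their unadjusted p was below 0.05 for 9 and 5 members, beside 482 and 331 of the 13915 genes. The lowest p-values belonged to Slc50a1, a sugar carrier, Slc24a3, a sodium calcium potassium exchanger, and Slc25a1, the mitochondrial citrate carrier. Slc50a1 had 275, 274 and 288 normalized counts in floxed and 312, 344 and 323 in LysMcre-labelled libraries. These did not overlap, and the adjusted p was 1. Slc24a3 averaged 34.6 ± 3.4 against 52.7 ± 17.4, and Slc25a1 averaged 466 ± 27.3 against 527 ± 34.1.

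With G-CSF 38 members were higher and 38 lower in LysMcre-labelled cells than in floxed cells, that is 41.1%, beside 36.0% of all genes, of which 17.1% were higher and 18.9% lower. Called differences of at least 2-fold made up 8.11% of members, beside 5.96% of all genes. Marker sums of stroma, of monocytes and macrophages and of T and NK cells did not overlap between these groups, while B cell marker sums overlapped, as given above. This comparison uses the same treated libraries as the G-CSF comparisons above. Under equal totals the split was 31 higher and 48 lower, beside 1542 higher and 3933 lower of all 13926 genes. Among the amino acid carriers 10 were higher and 4 lower, and among the mitochondrial carriers 6 were higher and 11 lower, or 2 and 14 under equal totals. Among members averaging 50 or more in the LysMcre-labelled group, the largest positive differences were in Slc39a14 (1.71), Slc3a2 (1.58), Slc41a1 (1.36), Slc7a5 (1.26), Slc32a1 (1.18) and Slc12a7 (1.03), on the log2 scale. The next were Slc7a6 (0.95), Slc36a3 (0.90), Slc37a2 (0.89) and Slc43a2 (0.82). The call for Slc36a3 was lost without floxed G-CSF replicate 2 (adjusted p = 0.071) or LysMcre G-CSF replicate 1 (adjusted p = 0.0709). Among members averaging 50 or more in the floxed group, the negative differences were led by Slc16a14 (-1.15), Slc25a27 (-1.15), Slc39a11 (-1.07), Slc28a2 (-1.03), Slc9a9 (-0.94) and Slc17a9 (-0.85). Slc46a3 (-0.73), Slc2a9 (-0.72), Slc12a5 (-0.69) and Slc38a6 (-0.68) followed. The Slc46a3 call was lost without floxed G-CSF replicate 2 (adjusted p = 0.0588) or LysMcre G-CSF replicate 1 (0.0528) or 2 (0.0563). Slc38a6, a relative of Slc38a2, averaged 305 ± 22.4 in floxed and 189.6 ± 7.94 in LysMcre-labelled cells with G-CSF. Slc12a5, a potassium chloride cotransporter known from neurons, averaged 183 ± 23.8 and 113 ± 14.2.

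The G-CSF response itself differed between genotypes for 48 members by the interaction term, or 25.9%, beside 22.4% of all genes. The difference was positive for 27 and negative for 21. Equal totals gave 16 and 42, beside 896 positive and 2997 negative of all 13926 genes. Amino acid carriers had 8 positive and 2 negative differences, and 6 and 4 under equal totals. Slc32a1, the vesicular carrier of GABA and glycine, moved in opposite directions. It went from 48, 44.5 and 64 to 33.6, 34.1 and 30.1 in floxed cells and from 37.9, 49 and 61.3 to 64.7, 74.3 and 88 in LysMcre-labelled libraries. Without G-CSF the genotypes overlapped, and with it they did not. The fall in floxed cells (log2 difference -0.65, adjusted p = 0.0173) was lost without floxed untreated replicate 3 (adjusted p = 0.0867) or floxed G-CSF replicate 3 (adjusted p = 0.0554). The rise in LysMcre-labelled cells (0.62, adjusted p = 0.0163) was lost under equal totals and without LysMcre untreated replicate 1 (adjusted p = 0.0875) or LysMcre G-CSF replicate 3 (adjusted p = 0.074). The antisense gene Gm14205 covers 24.9% of its exon length.

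**Figure D4:**
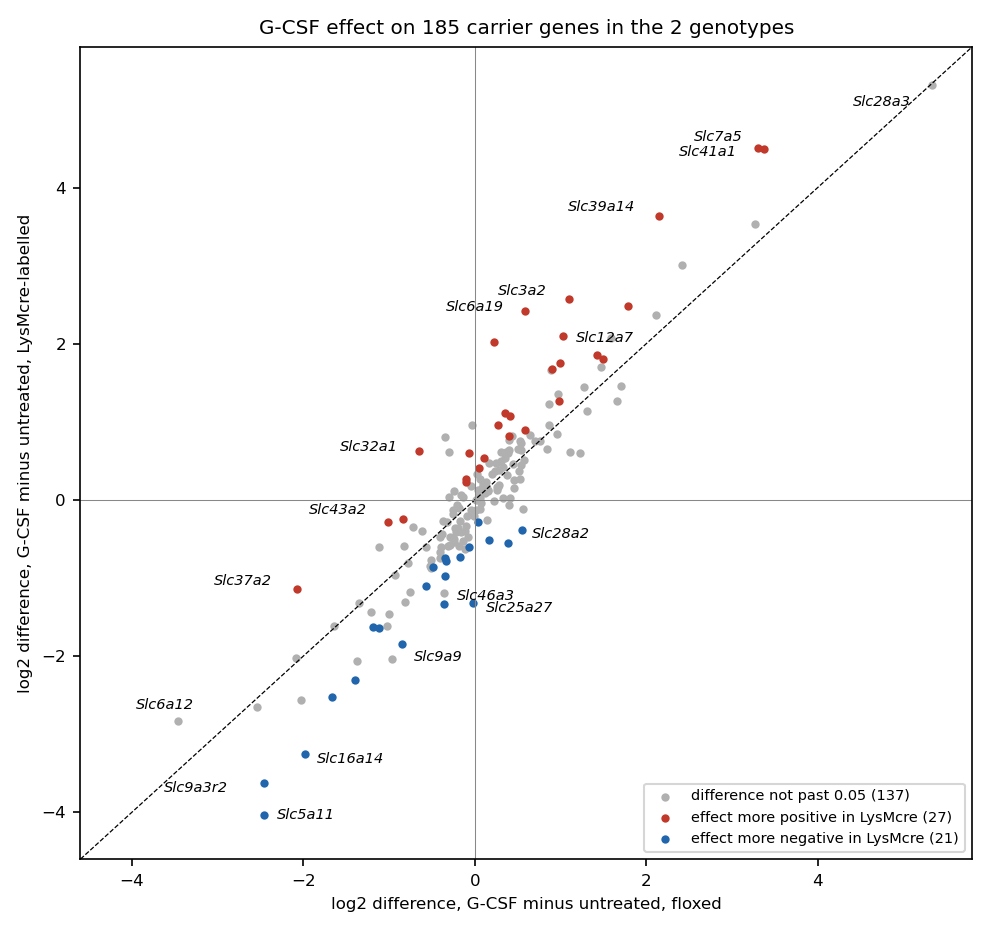
Log2 difference between G-CSF and untreated libraries in floxed (x axis) and LysMcre-labelled cells (y axis) for each of the 185 carrier genes, with the line of equal response dashed. Red marks the 27 genes whose response was more positive and blue the 21 whose response was more negative in LysMcre-labelled cells. Slc7a5, Slc41a1, Slc39a14 and Slc3a2 lie above the line, Slc5a11, Slc9a3r2 and Slc16a14 lie below it, Slc28a3 lies on it, and Slc32a1 and Slc28a2 lie in the quadrants of opposite direction.

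Members that lie close together on a chromosome were compared for direction. There were 16 pairs of protein-coding members within 100000 bases. Both members were called in 6 pairs in floxed cells, 4 of them in the same direction, and in 10 pairs in LysMcre-labelled cells, 8 of them in the same direction. Of all members 55.1% and 69.2% were called, and neighbouring pairs of other genes were not counted, so these counts have no baseline. Slc6a13 and Slc6a12 fell together, and Slc38a1 and Slc38a2 rose together. Slc31a2 and Slc31a1, and Slc36a3 and Slc36a1, moved in opposite directions.

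Other transport genes are given for context, beside 48.8% of all genes called in floxed and 62.6% in LysMcre-labelled cells. The 35 ABC transporters, which pump substrates with ATP, had 4 rises and 18 falls in floxed and 6 rises and 22 falls in LysMcre-labelled cells, or 62.9% and 80.0% called. Abca1, the cholesterol exporter, rose from 309 to 4255 in floxed and from 356 to 10376 in LysMcre-labelled cells on average. The 42 carriers of other families had 6 rises and 21 falls in floxed and 8 rises and 24 falls in LysMcre-labelled cells, or 64.3% and 76.2% called. Mfsd2a, a lysophospholipid carrier, rose from 6.89 to 47.1 and from 10.8 to 254. Of the 8 Slc carriers that the rule set apart, 7 rose and none fell in floxed cells, and 6 rose and 2 fell in LysMcre-labelled cells. Slc7a11, a cystine and glutamate exchanger that also pairs with Slc3a2, rose by 1.62 in floxed and 3.48 in LysMcre-labelled cells on the log2 scale. Bsg, the partner chain of the monocarboxylate carriers, rose by 0.24 and 0.60.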

How the data were processed

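RNA-seq of sorted mouse neutrophils was available as 12 libraries in 4 groups of 3. The authors deposited 1 table of normalized counts per gene, a signal in which each value is a whole read count divided by 1 size factor per library. At a tolerance of 0.01, 100.0% of the values were recovered as whole reads. Per the submitters' processing notes the genome build was mm10. The aligner, the counter and whether counting used strand were not given in the sources used here. Of the columns in the table, 2 were empty and 0 belonged to no sample.

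Genes with a mean under 10 were left out, which removed 20 rows and no member. Values were tested as log2(value + 1) with limma 3.58.1 in R 4.3.3, with a trended prior, the 4 groups together, 8 residual degrees of freedom, two-sided tests and Benjamini-Hochberg adjusted p-values (13915 genes, called below 0.05). A fold change is on that scale, which understates changes of low genes. edgeR 4.0.16 and DESeq2 1.42.0 on the recovered reads were alternatives, beside other scalings, pseudocounts, filters and leaving out each library. Replicate numbers came from the titles and were not used to pair the libraries in the main test. The column of LysMcre untreated replicate 2, matched by its description, carries the number 3, as does that of replicate 3. Gene spans, strands and exon lengths come from GENCODE M21, on GRCm38. Per-kilobase levels divide by the summed exon length. Start regions come from RefSeq.

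Members, classes and marker lists were chosen with earlier results of these data known. Genes are named as the 10 largest rises and falls past the threshold with groups that do not overlap averaging 50 or more in the higher group, the 6 largest in each direction of the interaction, the 3 lowest p in the untreated comparison and the 3 most abundant of each class per kilobase. Genes named beyond these (among them Slc43a3, Slc7a7, Slc7a8, Slc36a1, Slc15a2, Slc38a1, Slc38a2, Slc7a1, Slc1a5, Slc39a1, Slc41a3, Slc30a1, Slc31a1, Slc19a1, Slc4a1, Slc25a3, Slc25a28, Slc25a37, Slc29a1, Slc45a4, Slc37a1, Slc37a4) were chosen for their role after their values were seen. Some members that this rule names are not reported here.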

Additional observations from a re-analysis of the deposited data

Results flagged for a closer look

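Of the 48 members whose G-CSF response differed between the genotypes by the interaction term in limma, 12 are given here, the 6 largest differences in each direction among members averaging 50 or more in some group. All differences are LysMcre-labelled minus floxed on the log2 scale. The positive ones were 1.49 for Slc39a14, 1.47 for Slc3a2, 1.27 for Slc32a1, 1.20 for Slc41a1, 1.12 for Slc7a5 (SE 0.23, adjusted p = 0.00257) and 1.07 for Slc12a7 (SE 0.30, adjusted p = 0.0194). The negative ones were -1.58 for Slc5a11 (SE 0.34, adjusted p = 0.00319), -1.31 for Slc25a27, -1.28 for Slc16a14 (SE 0.33, adjusted p = 0.0116), -1.17 for Slc9a3r2 (SE 0.28, adjusted p = 0.00716), -0.997 for Slc9a9 (SE 0.26, adjusted p = 0.012) and -0.97 for Slc46a3 (SE 0.30, adjusted p = 0.0294). Without LysMcre untreated replicate 2 the Slc12a7 difference was 0.94 (adjusted p = 0.0536). Slc46a3, a lysosomal carrier, averaged 81.9 ± 20.1 and 62.5 ± 6.95 in floxed and 96 ± 16.2 and 37.9 ± 9.02 in LysMcre-labelled cells, without and with G-CSF. Its call was lost in 6 of 22 alternatives, each leaving out 1 library, with differences of -0.78 to -0.99 and adjusted p of 0.0521 to 0.077. Slc32a1 was the only one of the 12 that passed in opposite directions in the 2 genotypes.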

How the results depend on the processing

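None of the 5 counts of called members moved beyond 1.5 times under any alternative that was run. With 1 library left out, calls numbered 89 to 108 for G-CSF in floxed cells, 118 to 130 in LysMcre-labelled cells, 63 to 78 between genotypes with G-CSF, 0 between untreated genotypes and 39 to 50 for the interaction. Over all 23 alternatives (22 for the interaction) the ranges were 89 to 109, 114 to 130, 63 to 79, 0 and 39 to 58. Of the single-member values, 8051 kept their side of the threshold, 142 no longer passed and 95 newly passed. The 8051 include any values that changed sign without passing in either setting. A further 2 values changed sign and passed in the alternative only, both with equal totals in LysMcre-labelled cells. Slc22a15 went from 0.06 to -0.20 and Slc4a2 from 0.08 to -0.18, neither called on the deposited scale. Equal totals shifted the median of all genes to -0.13 between genotypes with G-CSF, -0.26 for G-CSF in LysMcre-labelled cells and -0.18 for the interaction. Rises then made up 39.2%, 34.1% and 27.6% of member calls, against 50%, 48.4% and 56.3%. The calls of all genes leaned to falls as well, at 1542 up and 3933 down, 2865 and 6327, and 896 and 2997. Interaction calls that several alternatives ended were those of Slc4a1ap (13), Slc25a24 (11) and Slc7a6, Slc23a2 and Slc39a4 (10 each). Replicate numbers were not used as pairs in the main test, and whether same-numbered libraries share a source is not settled here. The log2 values of each gene were taken as deviations from the group mean, and these deviations were correlated between libraries of different groups. Deviations of same-numbered libraries correlated at -0.18 to 0.32, 4 of 18 pairs over 0.1, and those of different numbers at -0.28 to 0.20. Of the 12 libraries, 8 correlated best in these deviations with a library of their own number. With the replicate number as a block, calls were 105, 130, 76, 0 and 46. Depth limits members near 3 reads, such as Slc28a3 without G-CSF.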
